A study of Mus musculus with 4 samples.

Results

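Laminins, type IV collagens, nidogens, perlecan and fibronectin are secreted matrix proteins, and integrins are the cell surface receptors that bind them. The genes were chosen by symbol alone: names of laminin alpha, beta and gamma chains, type IV collagen chains, and integrin alpha chains (those with a number, Itgav and Itgax) and beta chains, together with Nid1, Nid2, Hspg2 and Fn1. This gave 44 of the 26130 genes in the tables, 21 matrix parts (5 alpha, 3 beta and 3 gamma laminin chains, 6 type IV collagens and 4 others) and 23 receptors (14 alpha and 9 beta chains). Of these, 31 reached 1 RPM, the deposited unit, which scales reads to a common library total, in at least 1 library, 16 matrix parts and 15 receptors.

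In a basement membrane, laminin trimers of 1 alpha, 1 beta and 1 gamma chain polymerise at the cell surface, type IV collagen forms a second network, and nidogens and perlecan join them. Integrins, each a pair of an alpha and a beta chain, link these networks or fibronectin to the actin cytoskeleton through talin, kindlin and kinases. In the early mouse embryo, laminin-111 (chains encoded by Lama1, Lamb1 and Lamc1) is made before implantation, the primitive endoderm lays down the first basement membranes, and Lamc1 and Itgb1 are needed for them to form.

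RNA from mouse embryonic stem cells was made into 4 libraries with a stranded mRNA kit, 1 for each group, so nothing measures the spread between cultures of one group. The groups were E14 cells (strain 129P2/OlaHsd), wild type and Zfp57-/-, and JB1 cells (strain JF1/B6, a hybrid), wild type and Zfp57-/-. ZFP57 is a zinc finger protein that binds the methylated hexamer TGCCGC and keeps imprinting marks. All cells grew without feeder cells on gelatin, a denatured collagen, in serum and leukemia inhibitory factor, and serum itself carries fibronectin and vitronectin. The labels do not say how the knockout alleles were made, nor whether each knockout line was 1 clone.

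Where a pair of values is given for a line, the wild-type library comes first and the knockout second. The listed genes held 26801865 and 37965626 reads in the E14 libraries and 47458221 and 66849394 reads in JB1. Zfp57 was at 134.9 and 51.8 RPM in E14 and at 796.2 and 42.9 RPM in JB1. The 7 stem cell markers (Pou5f1, Nanog, Sox2, Zfp42, Esrrb, Tdgf1 and Dppa5a) each reached 1 RPM in every library. They summed to 3284 and 2982 RPM in E14 and to 4551 and 3834 RPM in JB1. In the E14 knockout library 1 of 7 was higher and in JB1 2 of 7, beside 53.5% and 51.5% of all genes at 1 RPM in either library of the line. Nanog differed most, 1.67-fold lower in E14 (227.9 and 136.6 RPM) and 1.91-fold lower in JB1 (692.6 and 361.8 RPM). The listed genes took 53.1% and 53.7% of the scaling total in the E14 libraries and 68.6% and 68.9% in JB1, and each line has its own table, so levels set side by side across lines are not on an equal footing. With 1 library per group no test within a line was possible: the intervals given with ratios are exact conditional binomial intervals at 95% on the recovered reads and cover counting error only, and differences are log2((knockout RPM + 1)/(wild-type RPM + 1)), which understates changes near or below 1 RPM. In bulk RNA, fewer cells of a type and less RNA per cell cannot be told apart.

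Few members passed 2-fold. On the log2(RPM + 1) scale, 1 of 28 members measured in E14 was at least 2-fold higher in the knockout library (Lama3), where 0.953% of all measured genes were, and 0 were at least 2-fold lower, where 0.269% of all genes were. In JB1, 2 of 29 members were at least 2-fold higher (Itga1 and Itgb7), beside 2.5% of all measured genes, and 2 were at least 2-fold lower, Lamc1 among them, beside 1.58% of all genes. Counts of 0 to 2 are too small to set the members apart from those shares. Lama2 in E14 and Itga1 in JB1 were measured through 1 library alone, the one in which each was higher, so each had to differ.

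**Figure D1:**
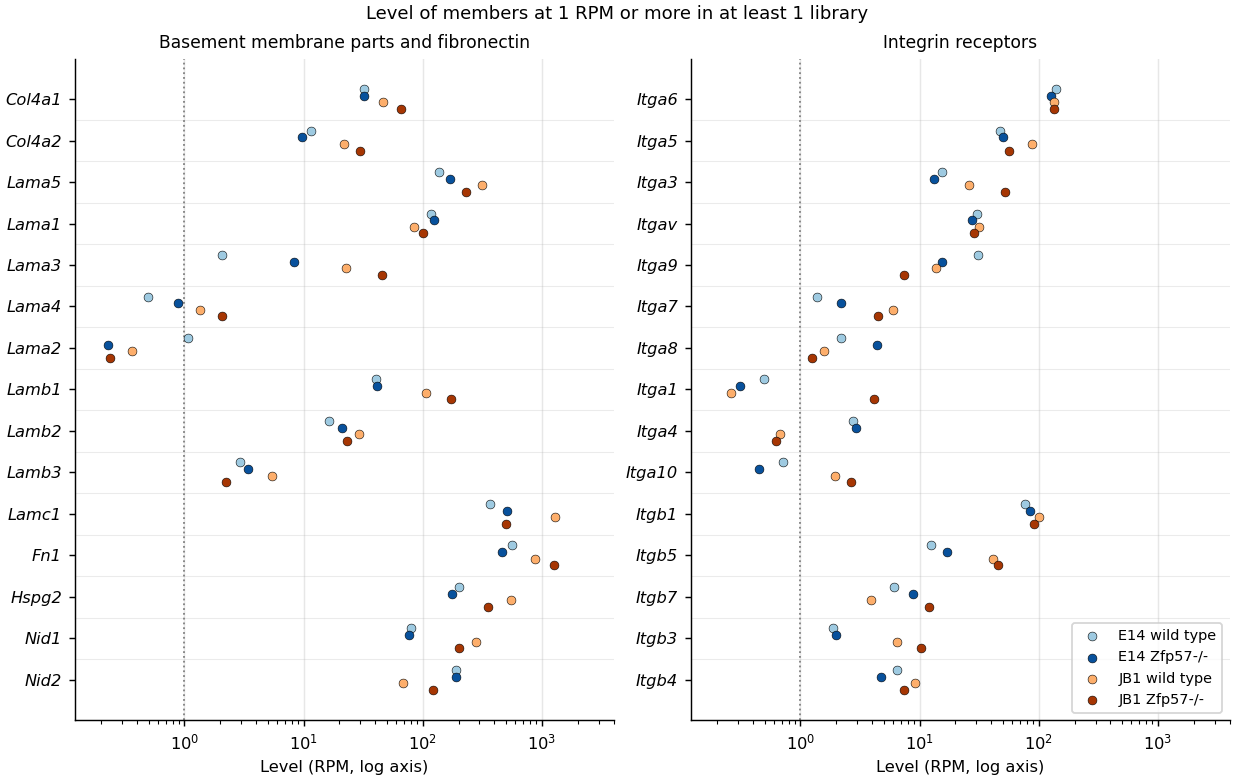
Level in RPM (log axis) of 30 of the 31 members at 1 RPM or more in at least 1 library, with matrix parts on the left and integrins on the right. Each point is 1 library, coloured by line and genotype, and the dotted line marks 1 RPM. The JB1 wild-type point of Lamc1 lies at 1282 RPM, apart from the other 3 libraries at 364 to 513 RPM.

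The laminin gamma chain gene Lamc1 went opposite ways in the lines. It encodes gamma1, the gamma chain of most laminins (chromosome 1, 155066052 to 155179916, minus strand, mm9). It was at 364 RPM in wild-type E14 cells, 513 RPM in the E14 knockout, 1282 RPM in wild-type JB1 cells and 501 RPM in the JB1 knockout. The JB1 wild-type library was the high one, and the other 3 lay closer together. Lamc1 was 2.56-fold lower in the JB1 knockout library (95% interval 2.53 to 2.59) and 1.41-fold higher in the E14 knockout library (1.38 to 1.43). Lamc3, which encodes gamma3, reached at most 0.332 RPM.

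Lamc1 shares its part of chromosome 1 with other genes that were lower in JB1. Of the 44 other measured genes within 5 Mb of Lamc1, 39 were lower in the JB1 knockout library, with a median difference of −0.33 on the log2 scale, against a median of 0.01 in E14, where 20 of 43 were lower. Relative to this local median the JB1 difference of Lamc1 was −1.02, still past 2-fold. Over 15 Mb to either side, among genes at a mean of 5 RPM or more, 72 of 85 were lower in JB1, and 5 of these 85 had a lower difference than Lamc1. From 15 to 45 Mb before Lamc1 the JB1 median was −0.08 over 79 genes, and from 15 to 45 Mb after it the median was −0.31 over 104 genes. The distances of 15 and 45 Mb were chosen after the values were seen. Subtracting the local median only describes the values, and the part of the region in the Lamc1 levels was not tested.

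**Figure D2:**
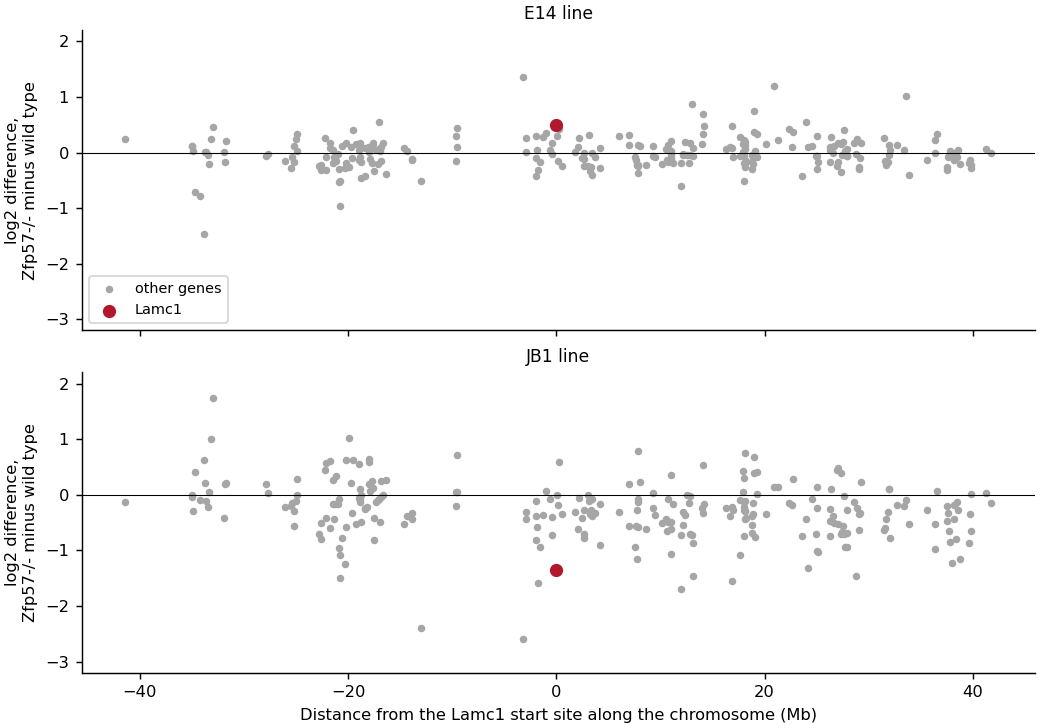
Knockout minus wild-type difference on the log2(RPM + 1) scale for genes at a mean of 5 RPM or more, by distance in Mb of their start site from that of Lamc1, in E14 (top) and JB1 (bottom). Lamc1 (red) lies above 0 in E14, at 0.49, and below most of its neighbours in JB1, at −1.35.

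Of the beta chains, Lamb1 did not follow Lamc1 in JB1. Lamb1, which encodes beta1, the partner of gamma1 in laminin-111 (chromosome 12, 31950099 to 32014509, mm9), was at 40.8 and 41.3 RPM in E14, a ratio of 1.01 (0.957 to 1.07). In JB1 it was at 106.9 and 173.5 RPM, 1.62-fold higher in the knockout library (1.58 to 1.67). So in JB1 the beta1 transcript was higher and the gamma1 transcript lower, while the median of the 34 other measured genes within 5 Mb of Lamb1 was −0.06. Lamb2, which encodes beta2, was at 16.4 and 21.1 RPM in E14 and at 29.1 and 23.3 RPM in JB1, so that it was higher in the E14 and lower in the JB1 knockout library, as Lamc1 was.

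Lamb3, the beta chain of laminin-332, also lies on chromosome 1 (195128151 to 195170072). It was low throughout, at 2.91 and 3.45 RPM in E14 and at 5.40 and 2.22 RPM in JB1, 2.44-fold lower in the JB1 knockout library (2.06 to 2.90), with a difference of −0.99 on the log2(RPM + 1) scale. Its own neighbours within 5 Mb had a JB1 median of −0.32. Lamc1 and Lamb3 lie beyond 140 Mb of that chromosome, a boundary taken from earlier results of these data. Lamb2, Lamb3, Lama5, Nid2 and the low integrins are described after their values were seen.

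Among the alpha chains, Lama3 was higher in the knockout library of both lines. Lama3 encodes alpha3, the alpha chain of laminin-332 (chromosome 18, 12492533 to 12741522, mm9). It was at 2.06 RPM in wild-type E14 cells, 8.25 RPM in the E14 knockout, 22.8 RPM in wild-type JB1 cells and 45.1 RPM in the JB1 knockout. The knockout library was 4.003-fold higher in E14 (3.24 to 4.98) and 1.98-fold higher in JB1 (1.87 to 2.099), and the JB1 libraries both lay above the E14 libraries. Its partner chain Lamb3 was lower in the JB1 knockout library, where Lama3 was higher.

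Lama1, the alpha chain of laminin-111 (chromosome 17), varied little, at 116.6 and 125.6 RPM in E14 and at 84.4 and 100.3 RPM in JB1, ratios of 1.08 (1.04 to 1.11) and 1.19 (1.15 to 1.23). Lama5, which encodes alpha5 of laminin-511, the laminin of the epiblast's basement membrane, was at 137.6 and 168.5 RPM in E14 and at 313.9 and 230.0 RPM in JB1. It was 1.22-fold higher in the E14 knockout library (1.19 to 1.26) and 1.36-fold lower in JB1 (1.34 to 1.39). Lama4, of vessel walls, reached at most 2.05 RPM. Lama2, the alpha chain of muscle laminin, was at 1.07 and 0.226 RPM in E14 and at 0.361 and 0.237 RPM in JB1; its E14 ratio, 4.73-fold lower (2.66 to 8.85), rests on 54 and 16 reads.

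Levels of different chains can be compared only per length, here RPM per kilobase of the longest annotated coding transcript. On this scale Lamc1 exceeded Lamb1 in every library, 6.78-fold in E14 wild type, 9.44-fold in the E14 knockout, 9.10-fold in JB1 wild type and 2.19-fold in the JB1 knockout, so the JB1 knockout was the library in which these partners were nearest to each other. Lama1 per length was 1.74- and 1.85-fold the level of Lamb1 in the E14 libraries and 0.479 and 0.351 of it in JB1. Lama5 took 48.9% and 51.1% of the summed alpha chains per length in E14 and 71.0% and 57.1% in JB1. These are RNA levels, and trimers were not measured.

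**Figure D3:**
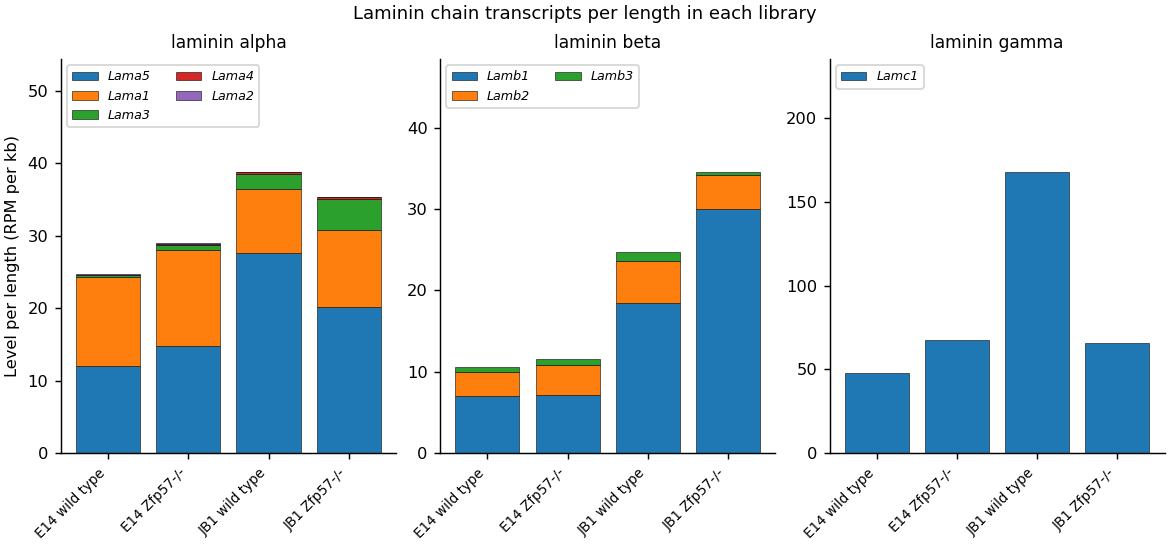
Level per length (RPM per kb) of the laminin alpha and beta chains and of Lamc1 in each library, stacked by gene, with a separate axis from 0 for each panel. Lamc1 peaks in JB1 wild type at 168.2 RPM per kb against 65.7 in the JB1 knockout, where the beta sum is 34.6 against 24.8.

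The linkers of the membrane split in JB1 and differed little in E14. Nid1 and Nid2 encode nidogens, which bridge laminin and collagen IV. Nid1 (chromosome 13) was at 79.6 and 76.1 RPM in E14 and at 280.5 and 203.1 RPM in JB1, 1.38-fold lower in the JB1 knockout library (1.35 to 1.41). Nid2 (chromosome 14, 20570479 to 20631009) was at 189.3 and 188.9 RPM in E14 and at 68.7 and 123.2 RPM in JB1, 1.79-fold higher in the JB1 knockout library (1.74 to 1.86). The nidogens thus went opposite ways in JB1, and per length Nid2 was 2.97-fold the level of Nid1 in E14 wild type and 0.306 of it in JB1 wild type. Nid2 shares 386 bases with 2700060E02Rik, a gene on the other strand at 91.6 to 129.8 RPM, and whether strand was used in counting is not given in the sources used here.

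Hspg2, which encodes the proteoglycan perlecan (chromosome 4), was at 200.6 and 174.9 RPM in E14 and at 553.0 and 353.2 RPM in JB1. It was lower in both knockout libraries, 1.15-fold in E14 (1.12 to 1.18) and 1.57-fold in JB1 (1.54 to 1.59). Fn1, which encodes fibronectin, a fibrillar matrix protein and the main ligand of integrin alpha5beta1, was at 562.0 and 461.8 RPM in E14 and at 883.4 and 1271 RPM in JB1. It was 1.22-fold lower in the E14 knockout library (1.20 to 1.24) and 1.44-fold higher in JB1 (1.43 to 1.45). Fn1 also lies on chromosome 1, but at 71632094 to 71699774, where the 58 other genes within 5 Mb had a JB1 median of 0.04.

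Of the type IV collagens, only the ubiquitous alpha1 and alpha2 chains reached 1 RPM. Col4a1 and Col4a2 are transcribed away from each other on chromosome 8, and their annotated starts overlap by 22 bases. Their start regions are shown because they overlap. Each window runs from 250 bases before to 50 bases after the start, from RefSeq on GRCm38.p6, and 78 bases lie in both, read on opposite strands. Capitals mark the GC box GGGCGG, the CCAAT box and the ZFP57 hexamer TGCCGC, each on either strand; in Col4a2 the hexamer overlaps a GC box. The third window, of Itgb1, is shown as that of a receptor with the hexamer.
Col4a1, chr8:11312777-11313076, minus strand: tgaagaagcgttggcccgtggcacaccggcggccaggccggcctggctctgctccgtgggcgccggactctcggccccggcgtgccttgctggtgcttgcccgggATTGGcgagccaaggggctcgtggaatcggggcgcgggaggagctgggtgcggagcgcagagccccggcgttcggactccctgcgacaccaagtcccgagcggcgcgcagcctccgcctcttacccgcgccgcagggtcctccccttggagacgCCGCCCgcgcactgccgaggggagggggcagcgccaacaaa
Col4a2, chr8:11312555-11312854, plus strand: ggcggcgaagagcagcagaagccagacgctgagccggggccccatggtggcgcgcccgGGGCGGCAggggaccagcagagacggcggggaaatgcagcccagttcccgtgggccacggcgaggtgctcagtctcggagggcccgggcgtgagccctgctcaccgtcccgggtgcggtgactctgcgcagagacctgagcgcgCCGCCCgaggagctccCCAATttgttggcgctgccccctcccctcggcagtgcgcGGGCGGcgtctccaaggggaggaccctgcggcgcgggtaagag
Itgb1, chr8:128685404-128685703, plus strand: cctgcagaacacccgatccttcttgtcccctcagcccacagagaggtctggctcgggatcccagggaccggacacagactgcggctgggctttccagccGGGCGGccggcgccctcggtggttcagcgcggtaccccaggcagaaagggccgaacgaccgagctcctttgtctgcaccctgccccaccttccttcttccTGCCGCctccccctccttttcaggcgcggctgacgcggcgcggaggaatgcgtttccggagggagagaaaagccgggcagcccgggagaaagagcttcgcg

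RefSeq windows were at hand for 30 of the 44 members, 33 windows in all. TGCCGC or its reverse GCGGCA was found in 3 of these 33 windows (Col4a2, Itgb1 and Itgb8), 9.09%, against 11.6% of all 32851 windows. GGGCGG was found in 17 of the 33 windows, 51.5%, against 35.7% of all windows, and CCAAT in 8, 24.2%, against 37.4%. The members' windows had a median GC content of 59.3%, above the median of 52.7% over all windows. The matches describe letters in these windows and say nothing of binding.

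Col4a1 was at 32.1 and 32.2 RPM in E14, a ratio of 1.00 (0.942 to 1.07), and at 46.3 and 65.8 RPM in JB1, 1.42-fold higher in the knockout library (1.36 to 1.48). Col4a2 was at 11.6 and 9.65 RPM in E14, 1.21-fold lower (1.08 to 1.35), and at 21.7 and 29.8 RPM in JB1, 1.37-fold higher (1.29 to 1.46). The pair thus differed by a like amount in JB1, where the 38 other genes within 5 Mb had a median of −0.12. Per length, Col4a1 stood 2.08- to 3.25-fold above Col4a2 over the 4 libraries, and 1.89- to 2.96-fold with the union of annotated exons as length. The common trimer holds 2 alpha1 chains for 1 alpha2, but trimers were not measured. The tissue-restricted chains were low, with Col4a3, Col4a4 and Col4a6 at most 0.127 RPM and Col4a5 at most 0.538 RPM.

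Among integrins, the beta1 chain and its main laminin-binding partner alpha6 were nearly level. Itga6 (chromosome 2) was at 140.4 and 126.2 RPM in E14 and at 134.0 RPM in both JB1 libraries, with a JB1 ratio of 1.00 (0.974 to 1.03). Itgb1 (chromosome 8, 131209554 to 131257100, mm9), the common partner of most alpha chains, was at 76.6 and 85.3 RPM in E14 and at 100.8 and 90.7 RPM in JB1, 1.11-fold higher and 1.11-fold lower in the knockout libraries. Itgav, the alpha chain of receptors for vitronectin and fibronectin, was 1.11-fold lower in E14 (30.3 and 27.3 RPM) and 1.10-fold lower in JB1 (31.8 and 28.8 RPM).

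Other alpha chains differed more. Itga3, whose product pairs with beta1 and binds laminin-332 and laminin-511 (chromosome 11, 94905788 to 94938115), was at 15.4 and 13.1 RPM in E14 and at 26.0 and 52.2 RPM in JB1, 2.003-fold higher in the JB1 knockout library (1.898 to 2.115), which is just short of 2-fold on the log2(RPM + 1) scale, and 1.17-fold lower in E14 (1.06 to 1.29). Itga5, the fibronectin receptor chain, was at 47.1 and 50.3 RPM in E14 and at 87.8 and 56.4 RPM in JB1, 1.56-fold lower in the JB1 knockout library (1.502 to 1.62). In JB1 the receptor chain Itga5 was lower where its ligand Fn1 was higher.

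Itga9, whose product binds tenascin and osteopontin (chromosome 9, 118515808 to 118810121), was lower in both knockout libraries. It was at 30.8 RPM in wild-type E14 cells, 15.4 RPM in the E14 knockout, 13.6 RPM in wild-type JB1 cells and 7.45 RPM in the JB1 knockout. The knockout library was 1.995-fold lower in E14 (1.85 to 2.16) and 1.83-fold lower in JB1 (1.66 to 2.01), while its neighbours within 5 Mb had medians of 0.08 in E14 and −0.05 in JB1. The difference of −0.95 in E14 lay just short of 2-fold on the log2(RPM + 1) scale.

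Itga1 encodes alpha1, a collagen receptor chain (chromosome 13, 115748287 to 115892172). It was at 0.495 and 0.311 RPM in E14 and at 0.260 and 4.18 RPM in JB1, so the JB1 knockout library was the high one and the other 3 lay below 1 RPM. The JB1 ratio was 16.05-fold (10.03 to 27.4), from 18 and 405 reads. The gene Pelo lies inside Itga1 on the same strand and was at 12.3 and 18.2 RPM in JB1, so the sharing of reads between these genes is uncertain. Its neighbour Itga2, which encodes the alpha2 collagen receptor chain, had 1 read, in the JB1 knockout library, and 0 in the other 3. Of the low alpha chains, Itga8, whose product binds nephronectin, was at 2.18 and 4.43 RPM in E14, a ratio of 2.03 (1.63 to 2.55), and at 1.58 and 1.26 RPM in JB1. Itga7, of the muscle laminin receptor, was at 1.39 and 2.19 RPM in E14 and at 5.95 and 4.50 RPM in JB1. Itga10, a collagen receptor chain of cartilage, was at 0.713 and 0.453 RPM in E14 and at 1.97 and 2.64 RPM in JB1, and it overlaps another gene on the same strand, so its reads are uncertain.

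Among the beta chains, Itgb7 was higher in both knockout libraries. Itgb7 encodes beta7, the partner of alpha4 and alphaE in lymphocyte homing (chromosome 15, 102046426 to 102062366). It was at 6.12 and 8.77 RPM in E14 and at 3.94 and 11.97 RPM in JB1, 1.43-fold (1.25 to 1.65) and 3.03-fold (2.66 to 3.47) higher. Its partners were low: Itga4 was at 2.77 and 2.91 RPM in E14 and at 0.679 and 0.619 RPM in JB1, and Itgae reached at most 0.773 RPM. Of the 7 blood cell markers, Ptprc, Cd14 and Csf1r were at most 0.268 RPM. Cd68 was at 10.8 and 6.86 RPM in E14 and at 5.09 and 4.65 RPM in JB1, and Cd3e was at 0.357 and 0.523 RPM in E14 and at 1.85 and 2.66 RPM in JB1. The list, which also holds Itgal and Itgam, was higher in the knockout library in 2 of 3 measured cases in E14 and in 3 of 4 in JB1. It summed to 17.0 and 16.5 RPM in E14 and to 17.9 and 24.4 RPM in JB1, and its part in the Itgb7 levels was not tested. Itgal, the alpha chain of a leukocyte integrin, was 2.85-fold higher in the JB1 knockout library (2.92 and 8.31 RPM).

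Itgb5 and Itgb3 encode partners of alphaV. Itgb5 was at 12.6 and 16.8 RPM in E14 and at 41.7 and 45.9 RPM in JB1, 1.34- and 1.10-fold higher. Itgb3 was at 1.86 and 1.99 RPM in E14 and at 6.50 and 10.3 RPM in JB1, 1.58-fold higher in the JB1 knockout library (1.41 to 1.77). Itgb4, the hemidesmosome partner of alpha6, was lower in both knockout libraries, at 6.50 and 4.72 RPM in E14 and at 9.15 and 7.38 RPM in JB1. The 8 receptors below 1 RPM everywhere included Itgax and Itgb2l, leukocyte chains with 0 reads in all 4 libraries, so that their level was at most 0.0594 RPM at the lowest depth (3 reads), and Itga2b, of platelets, at most 0.918 RPM.

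Per length, Itgb1 took 72.6% and 69.9% of the summed beta chains in E14 and 61.1% and 52.5% in JB1, with Itgb5 at 13.9% and 16.0% in E14 and 29.3% and 30.8% in JB1. Itga6 took 57.5% and 56.9% of the summed alpha chains in E14 and 47.6% and 49.8% in JB1. The share of Itga3 in JB1 was 8.20% in the wild type and 17.2% in the knockout, and that of Itga5 was 30.7% and 20.6%. With the union of annotated exons as length, Itga5 rather than Itga6 led the alpha chains in JB1 wild type, at 41.0% against 34.2%, so the order of these chains depends on the length taken.

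**Figure D4:**
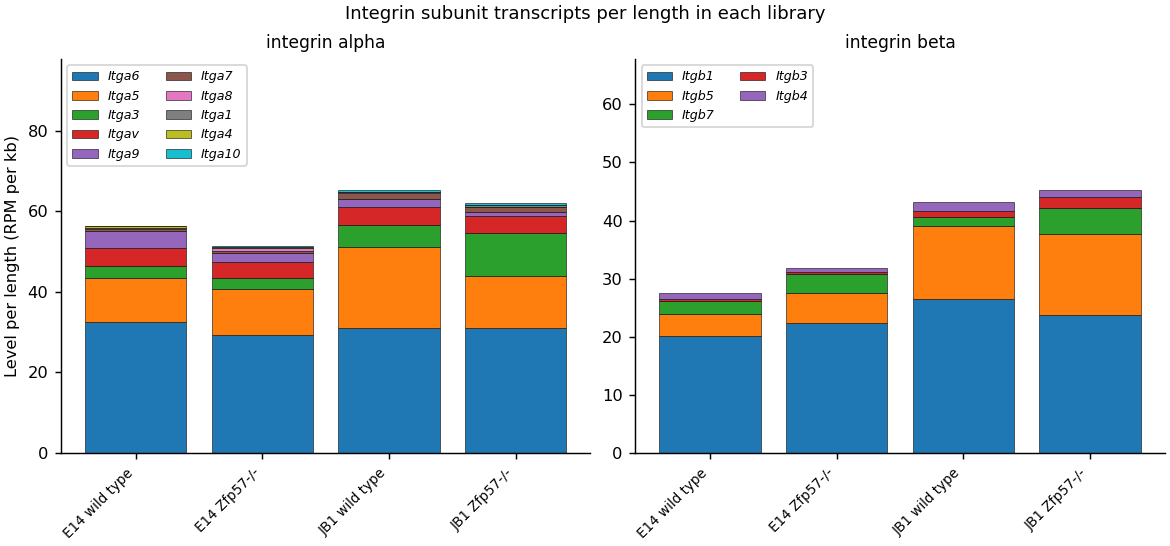
Level per length (RPM per kb) of integrin alpha and beta chains at 1 RPM or more, stacked by gene for each library, on axes from 0. The Itga3 share is widest in the JB1 knockout, and Itgb1 and Itga6 form the base of every bar.

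Matrix parts and receptors were set side by side as groups. In E14, 9 of 15 measured matrix parts and 8 of 13 receptors were higher in the knockout library, with medians of 0.02 and 0.07 beside 0.02 over all measured genes, of which 53.5% were higher. In JB1, 8 of 15 matrix parts and 7 of 14 receptors were higher, with medians of 0.25 and −0.07 beside 0.01 over all genes, of which 51.5% were higher. The matrix median in JB1 was 0.40 without the members on distal chromosome 1, −0.03 with a filter of 5 RPM and −0.02 without a filter, so it rests on which members are counted.

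The directions in the 2 lines were set side by side. Of the 26 members measured in both, 7 were higher in both knockout libraries and 5 were lower in both. The other 14 went opposite ways, 53.8%, beside 41.95% of all 11890 genes measured in both. Among these 14, Itga6 in JB1 (ratio 1.00, 0.974 to 1.03) and Nid2 in E14 (0.998, 0.972 to 1.02) lay inside counting error. So did Lamb3 in E14 (ratio 1.19, 0.962 to 1.46) and Itga8 in JB1 (0.799, 0.612 to 1.04). Whether the members differ from the share over all genes was not tested. The difference between lines could not be tested, since each line and genotype had 1 library. A genotype effect common to E14 and JB1 was fitted with limma, with line as a term, and 0 of 30 members passed an adjusted p of 0.05, as did 0.0% of the 12644 genes tested. At an unadjusted p under 0.05 there were 3 of 30 members, beside 7.95% of all genes. Lama3 had a limma log2 difference of 1.28 (SE 0.22), Itga9 one of −0.87 (SE 0.17) and Itgb7 one of 0.92 (SE 0.26). The limma adjusted p was 0.62 for each. Each had the same direction in both lines, which largely follows from the choice, since the spread of the fit is the disagreement between lines.

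**Figure D5:**
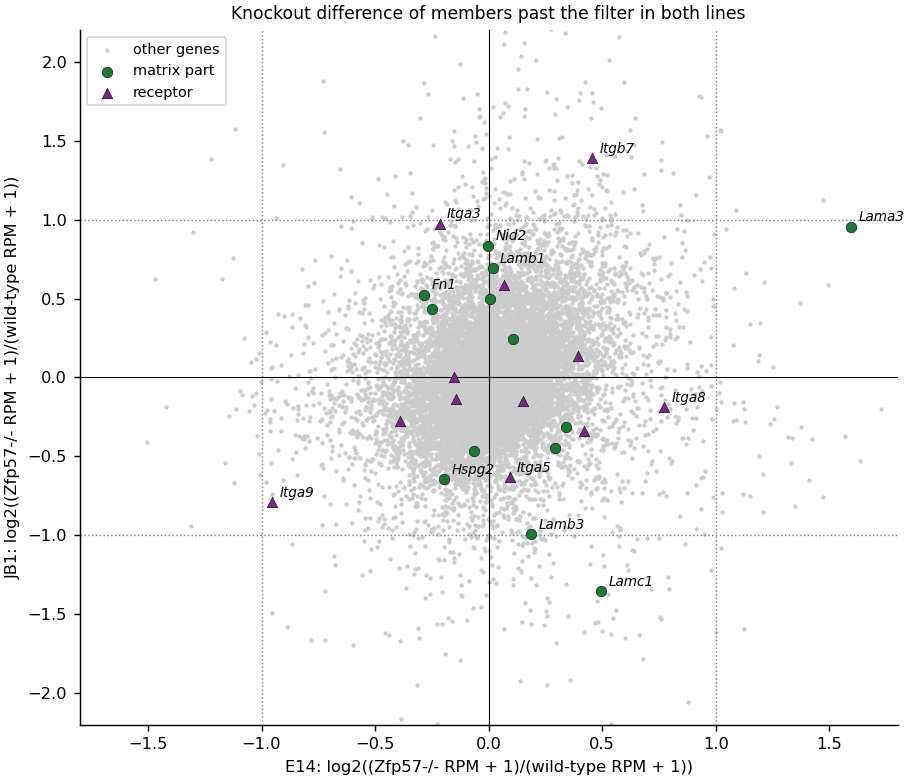
Knockout minus wild-type difference in E14 (x axis) against JB1 (y axis), both on the log2(RPM + 1) scale, for 25 of the 26 members measured in both lines (green circles, matrix parts; purple triangles, receptors) and other genes (grey, those beyond the axes not drawn). Dotted lines mark 2-fold; Lama3 and Itgb7 lie in the upper right, Itga9 in the lower left, and Lamc1 in the lower right.

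Genes that work with these members were taken from lists chosen with earlier results of these data known. Over all measured genes, 53.5% were higher in the E14 knockout library and 51.5% in JB1, shares to set beside the list counts. The integrin adhesion machinery covers talins, kindlins, kinases and actin linkers. Of its measured genes, 19 of 21 were higher in the JB1 knockout library, with a median of 0.29. In E14, 11 of 20 were higher, with a median of 0.03. Some of the 19 lay inside counting error, such as Parva (1.04, 0.930 to 1.16) and Fermt1 (1.07, 0.837 to 1.38). Tns1, which encodes tensin 1, a linker of integrins to actin, was the one gene of this list at 2-fold on the log2(RPM + 1) scale, in JB1 (18.3 and 42.3 RPM, 2.31-fold higher, 2.17 to 2.46). Tln1, which encodes talin 1, the activator of integrins, was at 101.5 and 104.5 RPM in E14 and at 124.1 and 146.7 RPM in JB1. Genes that modify and crosslink collagen were higher in 9 of 11 cases in each line, with medians of 0.13 in E14 and 0.11 in JB1 and none at 2-fold.

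Other basement membrane and laminin-binding genes were higher in 9 of 11 cases in E14 (median 0.26) and in 4 of 11 in JB1 (median −0.09). Agrn, which encodes the heparan sulfate proteoglycan agrin, was at 115.6 and 146.3 RPM in E14 and at 247.0 and 184.3 RPM in JB1, and Bcam, a receptor for laminin alpha5, was at 63.7 and 76.5 RPM and at 174.0 and 125.6 RPM. Ntn1, which encodes the laminin-related cue netrin 1, was 2.56-fold lower in the E14 knockout library (15.1 and 5.90 RPM) and 2.70-fold higher in JB1 (18.5 and 49.95 RPM). Of other integrin ligands, 7 of 7 were higher in E14 (median 0.47) and 4 of 8 in JB1 (median 0.06). Spp1, which encodes osteopontin, a ligand of alphaV and alpha9 integrins, was at 266.9 and 398.2 RPM in E14 and at 610.2 and 290.5 RPM in JB1, 2.101-fold lower in the JB1 knockout library. Of the leukocyte integrins outside the symbol rule, Itgal was higher in both knockout libraries. Itgam, at most 8.41 RPM, was 1.48-fold higher in E14 (1.26 to 1.74) and level within counting error in JB1 (1.06, 0.947 to 1.18).

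Markers of endoderm cells, which make much basement membrane, were mostly higher in the JB1 knockout library, where 51.5% of all measured genes were higher. Of 13 primitive and parietal endoderm markers, 10 of 11 measured in JB1 were higher in the knockout library, with a median of 0.55, and 3 of 8 in E14, with a median of −0.13. They summed to 252.8 and 309.7 RPM in E14 and to 253.0 and 400.4 RPM in JB1, most of it Lrp2 and Sparc, and Sparc is also in the basement membrane list. Cubn (2.43 and 8.89 RPM) and Hnf4a (0.405 and 2.09 RPM) were over 2-fold higher in JB1 on the log2(RPM + 1) scale. Pdgfra (1.49 and 3.22 RPM) was 2.16-fold higher as a ratio. The defining factors Gata6 (1.26 and 2.31 RPM) and Sox17 (0.824 and 1.25 RPM) were low and also higher, 1.84-fold (1.43 to 2.38) and 1.51-fold (1.10 to 2.11). Sox7 lay inside counting error in JB1 (1.05, 0.926 to 1.19). Of the 11, Gata4 alone was lower, at 6.10 and 2.97 RPM. Foxa2 reached at most 0.368 RPM in any library. No endoderm marker was at 0 reads in any library. Of the 9 fibroblast or feeder markers, 2 of 2 measured in E14 and 2 of 3 in JB1 were higher in the knockout library. They summed to 2.73 and 3.42 RPM in E14 and to 11.3 and 14.5 RPM in JB1, with Dcn at 0 reads in all 4 libraries and 2, 2, 4 and 1 of them at 0 reads in the order of the libraries above. Twist1 was at 3.40 and 0.814 RPM in JB1. Matrix parts went both ways in JB1, with 8 of 15 higher in the knockout library. The part of endoderm or fibroblast cells in their levels was not tested.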

How the data were processed

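The members and the gene lists were chosen with earlier results of these data known. Each deposited table covers 1 line and holds log2 values of RPM made by the authors. The build mm9 and the tools CASAVA 1.8.2, TopHat2 2.0.8b and cutadapt are named in the submitters' processing notes. Which annotation, counter, strand setting and scaling total were used: not given in the sources used here. In every library the unlogged value divided by the lowest one, times 0.9, was whole for 100% of genes above the lowest value (relative tolerance 0.0001), so reads were recovered and a gene without reads was set to 0 RPM. In the shallowest and the deepest library 1 RPM was 50.5 and 97.0 reads, and a count of 0 allows up to 3 reads, 0.0594 and 0.0309 RPM. Reads carry no molecular identifiers, so intervals cover counting error only.

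Within a line, genes at 1 RPM in either library were measured. The shared effect used limma 3.58.1 (R 4.3.3) on log2(RPM + 1), with line and genotype as terms, eBayes with trend, and Benjamini-Hochberg adjustment over all genes averaging 1 RPM or more. It leaves 1 residual degree of freedom per gene and 5.28 prior ones, and its spread is the disagreement between the 2 lines. The fit was also run on simulated data in which each changed gene differed alike in both lines. That run does not bear on the disagreement between the lines in these data. A count model was foreseen only for files of counts and was not run. Lengths came from GENCODE M21, matched by symbol for 44 of 44 members. Coordinates are those of the tables, and only the windows from RefSeq are on GRCm38.p6.

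Members were named by a rule: at least 2-fold in a line, past the limma threshold, a core chain of laminin-111 or collagen IV, Nid1, Hspg2, Fn1, or an integrin at 10 RPM or more. From the lists, genes at least 2-fold apart were named. One member and one overlapping gene are counted but not reported here. Members and list genes outside the rule were described after their values were seen. Alternatives changed the pseudocount (0.1 or 5 RPM), the filter (5 RPM or none), the scaling, the centring, the local median within 5 Mb, the trend, the line term and the transcript length.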

Additional observations from a re-analysis of the deposited data

Results flagged for a closer look

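Genes that were at least 2-fold apart in one line, with opposite directions in E14 and JB1 and counting intervals off 1 in both, were picked out. The difference between the lines was not tested, since each line and genotype had 1 library. Lamc1 differed by 0.49 on the log2(RPM + 1) scale in E14 and by −1.35 in JB1. Ntn1, of the basement membrane and laminin-binding list, went the other way, with −1.22 in E14 and 1.38 in JB1. Spp1, of the integrin ligand list, differed by 0.58 in E14 and −1.07 in JB1.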

How the results depend on the processing

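No difference of 2-fold or more turned its direction under the alternatives run, and limma called 0 members and 0 genes under all 8 of its alternatives, with a lowest adjusted p of 0.56 for a member. At 5 RPM as pseudocount, no member was 2-fold higher (0 in E14, 0 in JB1) and the JB1 matrix median was 0.15. At a pseudocount of 0.1 RPM and after rescaling to the listed genes, 1 member (Lama2) was 2-fold lower in E14, and after subtracting the local median it was 1 other (Itga9). Lamb3 joined the members at least 2-fold lower in JB1, making 3, with a pseudocount of 0.1 RPM, after centring and after rescaling. A filter of 5 RPM left 1 member 2-fold higher in JB1 (Itgb7) and gave a receptor median of −0.14 in E14, with 4 of 9 receptors higher, and a JB1 matrix median of −0.032. Without a filter, 14 of 21 matrix parts were higher in E14, 11 of 23 receptors were higher in JB1, and the JB1 matrix median was −0.017. Without the members on distal chromosome 1, a choice made after seeing the data, it was 0.40. With the exon union as length, Lamc1 stood 10.7-, 14.9-, 14.4- and 3.46-fold above Lamb1 in E14 wild type, E14 knockout, JB1 wild type and JB1 knockout. Except where Lama2, Itga9, Lamb3 or the filters themselves set the change, the cause was not tested.

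Lines serve as the replicate block. In the fit with no replicate block, 0 members and 0 genes were called, and 0 members had an unadjusted p under 0.05. Leaving out a line leaves no residual degrees of freedom, so the values within each line stand in its place. The within-line alternatives gave 350 values of single named genes. Of these, 312 moved by no more than the distance from the middle to an end of their log2 counting interval. The sign was kept in 342. Those that changed sign were Col4a1, Lamb1 and Cubn in E14 and Itga6 in JB1, whose differences were near 0. One library per group and counts under about 50 reads limit the low members, Itga1, Lama2 and Col4a5 among them.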
